A study of Schmidtea mediterranea with 9 samples.

Results

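Ovary was compared with testis in sexual *Schmidtea mediterranea*, a hermaphroditic planarian flatworm in which each worm carries both gonads. The comparison used the 3 ovary libraries and the 3 testis libraries out of 9 libraries in all, the other 3 being non-gonadal tissue cut from around the gonads. All 9 came from wild-type worms of the sexual strain, for which the labels name neither an age nor a treatment. Tissue was cut from stained frozen sections by laser capture, and each ovary library pooled tissue from 14 worms, whereas each testis or non-gonadal library pooled tissue from 6. Of 36036 transcripts, 18416 were kept because their deposited CPM reached 1 in at least 3 of the 9 libraries, and no library had less than 99.6% of its counts in them. A library is a pool of captured tissue, so the p-values below measure the spread between pools, and fewer cells of a type cannot be told apart from less RNA per cell.

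The planarian ovary holds oogonia and oocytes with somatic support cells around them, and lies under the brain. The testes are many small lobules along the body in which spermatogonial stem cells divide, enter meiosis and reshape into sperm. Germ cells of both sexes arise from the same kind of *nanos*-expressing precursor and rely strongly on RNA-binding proteins, since much of germ cell development is controlled after transcription. The CCCH zinc finger proteins are a family of this kind and bind RNA through fingers in which 3 cysteines and 1 histidine hold a zinc ion.

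A pair of coding sequences is shown because their transcripts gave strong signals in the ovary libraries and frame the comparison. *zfs1* encodes a CCCH protein of female germ cells, and *lecg* encodes a lectin that marks oocytes. The sequences were taken from the study's list of probes and are printed 5′ to 3′. For *zfs1*, the longest frame in the probe that runs from a start codon to a stop codon is shown. Whether the true frame starts further upstream was not checked. The 97 codons shown hold 2 motifs of the CCCH type, and the 8 codons for the zinc-binding cysteines and histidines are in capitals. The motifs start at codons 7 and 44 and are separated by 18 codons. They differ in the spacing of their first pair of cysteines, 7 residues in the first motif and 8 in the second. Of *lecg*, the first 150 bases of the longest frame from a start codon are shown, with that codon in capitals.
zfs1: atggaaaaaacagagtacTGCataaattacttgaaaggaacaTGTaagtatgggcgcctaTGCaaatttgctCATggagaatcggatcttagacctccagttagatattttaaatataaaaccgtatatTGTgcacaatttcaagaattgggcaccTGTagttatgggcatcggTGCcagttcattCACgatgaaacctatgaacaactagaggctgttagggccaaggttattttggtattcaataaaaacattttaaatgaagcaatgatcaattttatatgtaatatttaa
lecg: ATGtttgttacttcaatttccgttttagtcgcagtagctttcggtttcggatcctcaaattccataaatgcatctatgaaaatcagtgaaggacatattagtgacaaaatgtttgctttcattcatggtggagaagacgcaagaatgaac

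Within a gene, levels are given per library in normalized CPM, the read counts relative to library size after scaling for composition by TMM (the trimmed mean of M values method of edgeR). Levels of different genes are set side by side only in TPM, which accounts for transcript length. TPM carries no composition scaling, so a ratio of ovary to testis TPM is larger than the fitted ratio. A transcript was called when edgeR's quasi-likelihood test found a change of 2-fold or more at a Benjamini-Hochberg adjusted p of 0.01 or less. Log2 fold changes are ovary over testis, given with their standard error (SE).

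The labels were first set against marker genes. *lecg* had 1598, 1394 and 1647 normalized CPM in the ovary libraries, against 98.2, 118 and 112 in the testis libraries. Its non-gonadal values were 6.73, 23.2 and 6.08. *sped-1*, a gene with known testis expression, had 50.3, 19.9 and 48.5 normalized CPM in the ovary libraries, against 10563, 10697 and 9795 in the testis libraries, while non-gonadal tissue had 36.7, 17.3 and 17.3. Non-gonadal replicate 2 stood apart for ovary transcripts such as *lecg*, and without it the calls described below were 5806 higher in ovary and 5597 higher in testis. Each marker was highest in the gonad it belongs to in every library. The study found *lecg* among transcripts enriched in these ovary libraries, so its place was largely fixed by that choice and is no independent check. Total counts lay between 20629642 and 25730833 in ovary and between 22157475 and 25537267 in testis. Libraries of the same gonad correlated at 0.987 to 0.989 over the kept transcripts on the log2 CPM scale, and an ovary and a testis library at 0.414 to 0.496. Both ranges are correlations over transcripts, and transcripts are not replicates.

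The 2 gonads differed in most of the transcripts they were tested for. Of the 18416 kept, 5828 were higher in ovary (31.6%), 5602 were higher in testis (30.4%) and 6986 were not called (37.9%). The counts of calls were close, but the sizes of the differences were not. The median transcript called higher in ovary had a log2 fold change of 1.88 (quartiles 1.40 and 2.75), whereas the median transcript called higher in testis had a log2 fold change of -3.74 (quartiles -7.05 and -2.01). A difference of at least 4-fold was found for 2634 transcripts higher in ovary and 4205 higher in testis, of at least 16-fold for 715 and 2648, and of at least 64-fold for 288 and 1813. Differences of at least 16-fold thus made up 12.3% of the calls higher in ovary and 47.3% of those higher in testis. These fitted sizes are uncertain where the lower gonad had hardly a read, which was true of 116 of the 133 transcripts at least 256-fold higher in ovary (at most 3 testis counts) and of 41 of the 556 at least 256-fold higher in testis (at most 3 ovary counts). The balance of the counts depended on the scaling. With library size alone and no TMM factor, the median log2 fold change over all kept transcripts was 1.19 in place of 0.22, a shift of 0.97, and the calls were 9738 higher in ovary and 4202 higher in testis, so that 69.9% of calls were higher in ovary in place of 51.0%. Even so, 2199 transcripts were at least 16-fold higher in testis on that scale, against 1212 in ovary. The TMM factors were 1.37 to 1.39 in the ovary libraries and 0.670 to 0.727 in the testis libraries.

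**Figure D1:**
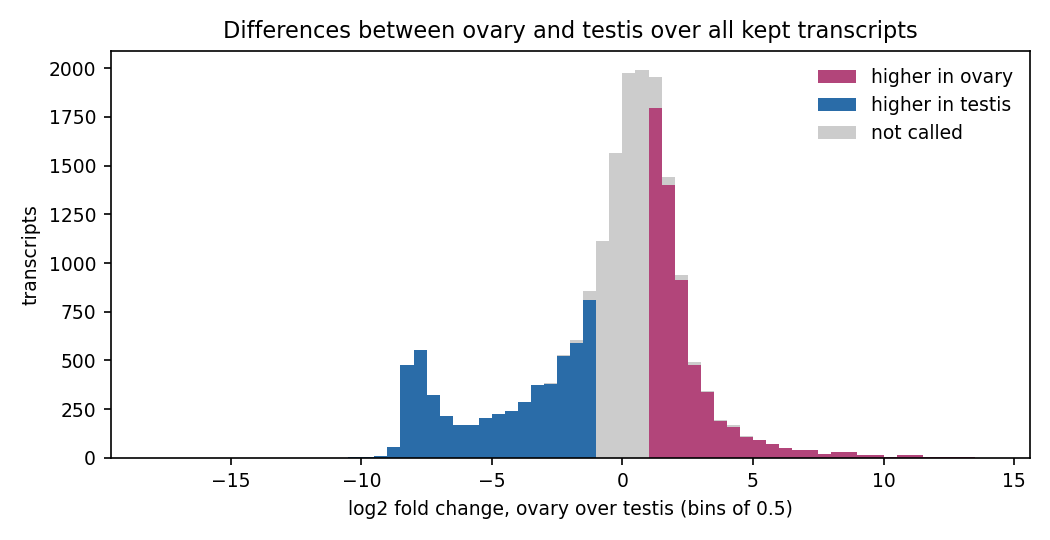
Histogram of the log2 fold change, ovary over testis, of the 18416 kept transcripts in bins of 0.5, with the number of transcripts on the vertical axis and colors for the 5828 called higher in ovary, the 5602 called higher in testis and the 6986 not called. Transcripts higher in ovary thin out to the right, though not evenly from bin to bin. Those higher in testis form a further peak on the left, fullest between -8 and -7.5 with 554 transcripts.

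The distribution of testis-higher transcripts had a further peak. Between log2 fold changes of -9 and -7 lay 1411 transcripts, 25.2% of all calls higher in testis, and the fullest bin of 0.5 ran from -8 to -7.5 with 554 transcripts. The range from -6 to -4 held 835. On the ovary side, 124 transcripts lay between 7 and 9 and no such peak was seen. Transcripts that were at least 64-fold higher in testis and reached a mean of 100 TPM there numbered 864. Their median level in the 3 ovary libraries was 0.482%, 0.256% and 0.466% of the testis mean on the normalized CPM scale, with quartiles of 0.395% and 0.617%, 0.203% and 0.346%, and 0.381% and 0.626%. The same medians for non-gonadal tissue were 0.358%, 0.193% and 0.188%. The choice of at least 64-fold caps their ovary shares, so these are a description of the peak. Transcripts outside the choice had higher shares, such as *nf-yb*, described below. Ovary replicate 2 was the lowest of the ovary libraries. The part that this low share has in the place of the peak was not tested.

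Transcripts higher in testis made up most of what was sequenced from testis. They took up only 8.01% to 8.21% of ovary counts, against 66.4% to 71.5% of testis counts and 7.33% to 7.53% of non-gonadal counts. Transcripts higher in ovary took up 34.8% to 36.9% of ovary counts, against 4.67% to 5.58% of testis counts and 35.0% to 36.7% of non-gonadal counts. Those not called held 54.8% to 56.6% of ovary counts and 23.7% to 27.8% of testis counts. The classes were made from the same libraries, so their shares in ovary and testis are a description, and the non-gonadal libraries also entered the fit. In ovary, the shares of the 3 classes were close to those of non-gonadal tissue. Counts were spread over many transcripts in both gonads, 614, 705 and 614 transcripts holding 50% of the counts in the ovary libraries and 709, 646 and 685 in the testis libraries, against 287 to 295 in non-gonadal tissue.

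**Figure D2:**
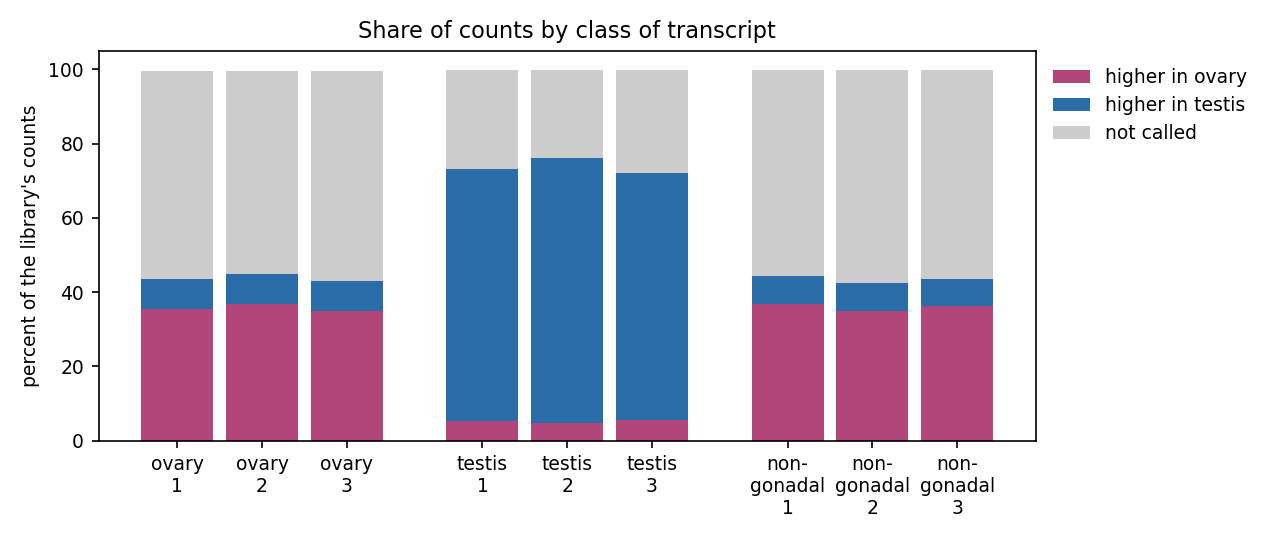
Stacked bars of the percent of each library's counts in transcripts called higher in ovary, higher in testis or not called, with 3 libraries each of ovary, testis and non-gonadal tissue along the horizontal axis. Transcripts higher in testis hold 66.4% to 71.5% of testis counts and at most 8.21% of counts in any other library, and the ovary bars look like the non-gonadal ones.

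Non-gonadal tissue showed where each class stood outside the gonads. The 3 comparisons share libraries, so their medians are given side by side with no test. In the class higher in ovary, the median transcript stood on the log2 scale at -0.18 relative to non-gonadal tissue in ovary (quartiles -0.95 and 0.96) and at -2.20 in testis (quartiles -3.27 and -1.12). In the class higher in testis, it stood at 0.41 in ovary (quartiles -0.36 and 1.01) and at 4.14 in testis (quartiles 2.03 and 7.95). The typical transcript higher in ovary was therefore at about its non-gonadal level in ovary and below it in testis, and the typical transcript higher in testis was near its non-gonadal level in ovary and far above it in testis. Transcripts not called lay at -0.11 in ovary and -0.22 in testis. Median TPM, which carries no composition scaling, was 12.7 in ovary against 1.28 in testis and 7.09 outside the gonads for the class higher in ovary, and 2.33, 29.9 and 1.35 for the class higher in testis. On that scale ovary lay above non-gonadal tissue in both classes, so its place relative to the body depends on the scaling. The median length was 1535 bases in the class higher in ovary, against 1210 in the class higher in testis and 1360 over all kept transcripts.

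**Figure D3:**
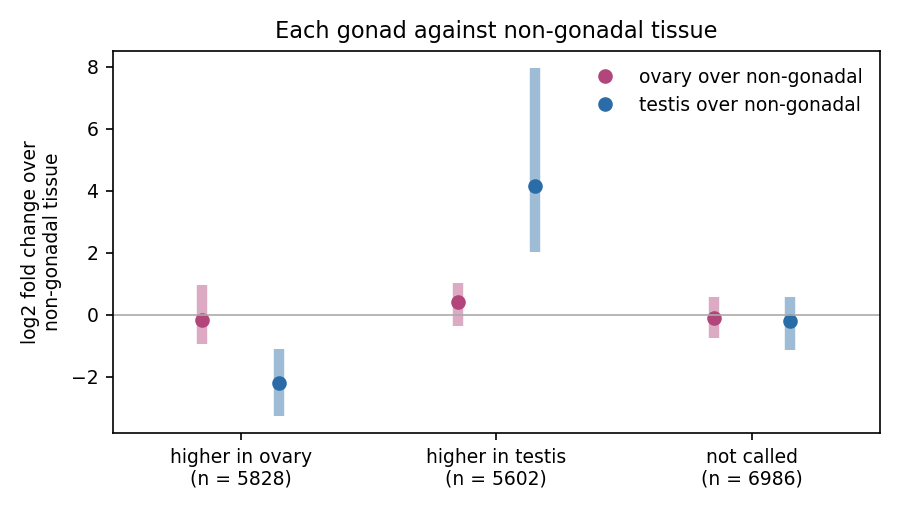
Median (point) and quartiles (bar) of the log2 fold change of ovary and of testis over non-gonadal tissue, for the 5828 transcripts called higher in ovary, the 5602 called higher in testis and the 6986 not called. In the class higher in ovary it is testis that lies away from 0, at a median of -2.20, and in the class higher in testis it is again testis, at 4.14.

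The most abundant transcripts of the gonads divided unevenly. Over all kept transcripts, 31.6% were called higher in ovary, 30.4% were called higher in testis and 37.9% were not called. Of the 100 with the highest mean TPM in ovary, 30 were higher in ovary, none was higher in testis and 70 were not called. The share higher in ovary was thus near that over all kept transcripts. Of the 100 with the highest mean TPM in testis, 6 were higher in ovary, 78 were higher in testis and 16 were not called. Both sets were picked by levels that also enter the calls, so the counts are a description. On the normalized CPM scale, the top 100 of ovary had a median of 68.1%, 69.0% and 73.0% of their ovary level in the 3 testis libraries, and of 133% to 146% in non-gonadal tissue. By contrast, the top 100 of testis had 0.518%, 0.263% and 0.469% of their testis level in the 3 ovary libraries. On this scale, most abundant transcripts of ovary were thus not called between the gonads, and their median level in the body was above that in ovary. Most abundant transcripts of testis were called higher there. The ovary result depends on the scaling, since library size alone shifted the median log2 fold change of all kept transcripts by 0.97 toward ovary.

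The 5 most abundant transcripts of ovary among those called higher there were SMED30018045, SMED30007704, SMED30021063, SMED30002931 and SMED30025753, which the files give by identifier only. Their mean levels in ovary ran from 10972 ± 341 TPM (SMED30018045) to 6324 ± 484 TPM (SMED30025753), and in testis from 1923 ± 267 TPM (SMED30018045) to 617 ± 121 TPM (SMED30021063) (SD, n = 3 each). SMED30018045 had 2996, 2744 and 3029.7 normalized CPM in the ovary libraries, against 911, 1081 and 1224 in the testis libraries, a log2 fold change of 1.45 (SE 0.16). The log2 fold changes of these 5 ran from 1.12 (SMED30002931) to 2.34 (SMED30021063). All 5 were near or above these levels in non-gonadal tissue, where SMED30018045 averaged 10821 TPM. SMED30002931 lost its call without ovary replicate 1, at a log2 fold change of 0.91.

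The 5 most abundant of testis among those called higher there, SMED30006104, SMED30006063, SMED30017110, SMED30019638 and SMED30015920, differed far more. They averaged between 25592 ± 1141 TPM (SMED30006104) and 11190.1 ± 1352 TPM (SMED30015920) in testis, and in ovary between 164 ± 49.3 TPM (SMED30006104) and 65.7 ± 24.1 TPM (SMED30019638). SMED30006104 had 61.9, 29.8 and 58.8 normalized CPM in the ovary libraries, against 15545, 17302 and 15557 in the testis libraries. SMED30006063 had 63.5, 22.7 and 46.8 in the ovary libraries, against 17002, 14696 and 16646 in the testis libraries. Replicate 2 was the lowest ovary library for both, and the gonads were far apart in every library. The log2 fold changes of the 5 ran from -8.52 (SMED30019638) to -7.89 (SMED30017110), with SEs of 0.42 to 0.51.

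Some of the most abundant transcripts did not differ detectably. SMED30002956 averaged 70081 ± 30758 TPM in ovary and 42147 ± 13634 TPM in testis, and its log2 fold change was -0.30 (SE 0.33, edgeR adjusted p = 0.41). Its libraries overlapped, with 27432, 9757 and 16529 normalized CPM in ovary and 22216, 14944 and 28809 in testis. SMED30030028, SMED30014063, SMED30022321 and SMED30000628 likewise had log2 fold changes between -0.28 and -0.03 with adjusted p of 0.21 to 0.9 (edgeR). With library size alone these 5 had positive values of 0.66 to 0.95, so their direction follows the scaling.

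Few transcripts were read in 1 gonad and missed in the other. No count in any testis library was found for 144 kept transcripts (0.782%), and no count in any ovary library for 37 (0.201%). A floor of 3 counts over a group of libraries corresponds to 0.033 normalized CPM in ovary and 0.059 in testis, and covers counting error only. Of the 9017 transcripts that reached a mean of 10 TPM in ovary, 93 (1.03%) had at most 3 testis counts. Of the 7520 that reached 10 TPM in testis, 12 (0.160%) had at most 3 ovary counts. Nearly all transcripts that were abundant in 1 gonad were therefore read in the other, at whatever level. Of the 93 ovary transcripts, 32 also had at most 3 counts in non-gonadal tissue, as had 8 of the 12 testis transcripts.

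The largest changes came from transcripts at or near 0 in the other gonad, and they are given as bounds or with counting intervals. Among those of at least 10 TPM in ovary, SMED30007251 had 46.5, 47.4 and 43.7 normalized CPM in the ovary libraries, against 0, 0 and 0 in the testis libraries, so that it was at least 775-fold higher in ovary. SMED30034838 had 47.9, 41.5 and 45.9 normalized CPM in the ovary libraries, against 0 in each testis library (at least 755-fold), and SMED30015345 had 32.8, 34.4 and 39.7 against 0 (at least 599-fold). The fourth was EIF3H_XENLA, described with the translation genes. SMED30033061 was the most abundant of the 5, with 321, 332 and 316 normalized CPM in the ovary libraries, against 0, 0.117 and 0 in the testis libraries. It had 29819 counts over the ovary libraries, 2 over the testis libraries and 0 over the non-gonadal libraries, a ratio of 8180 (95% counting interval, Clopper-Pearson, 2264 to 67550).

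In the other direction, SMED30023267 had 0, 0 and 0 normalized CPM in the ovary libraries, against 677, 827 and 672 in the testis libraries. Its 36722 testis counts stood against 0 counts over the ovary libraries and 0 over the non-gonadal libraries, so that it was at least 22310-fold higher in testis. That it had no count at all outside testis set it apart from the 5 most abundant testis transcripts above, which were all read in every ovary library. SMED30021791 had 0 in each ovary library, against 28.6, 24.5 and 32.5 normalized CPM in testis (at least 877-fold), and SMED30001254 had 0, against 8.59, 7.67 and 6.54 (at least 233-fold). The remaining 2, SMED30023279 and SMED30019818, had 1 ovary count each, and their ratios of 1834 (328 to 72493) and 1615 (289 to 63854) rest on that read.

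Genes known from planarian gonads were taken as the first list, 13 transcripts in all. Of these, 5 were higher in ovary, 7 were higher in testis and *nanos* was not called, where 31.6% and 30.4% of all kept transcripts were called in those directions. The symbols were paired with the transcripts through the study's labels and could not be checked against sequence. Those 7 and *nanos* were taken from genes with known gonadal expression and the other 5 from the study's ovary work on these libraries, so the directions are no independent evidence.

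Among those higher in testis, 5 had log2 fold changes of -8.03 to -6.13 and the other 2 had smaller ones. *sped-1* (values above) had a log2 fold change of -8.03 (SE 0.46, edgeR adjusted p = 2.7e-09). C3H-zfn-1, another CCCH zinc finger gene, had 30.2, 14.2 and 27.3 normalized CPM in the ovary libraries, against 5573, 6497 and 5367 in the testis libraries, or -7.93 (SE 0.39). For *elav2*, an RNA-binding protein gene, the values were 6.02, 3.47 and 5.71 in the ovary libraries, against 1020.2, 1201 and 1023 in the testis libraries, or -7.74 (SE 0.37). In all 3 genes ovary replicate 2 had the lowest value, as in the abundant testis transcripts above. The *gapdh* transcript, a copy of the glycolytic enzyme gene, had 0.567, 0.812 and 0.709 normalized CPM in the ovary libraries, against 158, 112 and 137 in the testis libraries (-7.58, SE 0.22), and here ovary replicate 2 was the highest. *bic-c*, which encodes an RNA-binding translational regulator, had 1.06, 0.840 and 1.56 in the ovary libraries, against 86.9, 68.3 and 84.7 in the testis libraries (-6.13, SE 0.19).

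Of the other 2, eIF3c, a subunit of a translation initiation factor, had 17.4, 20.3 and 18.0 normalized CPM in the ovary libraries, against 280.4, 306 and 259 in the testis libraries, a log2 fold change of -3.92 (SE 0.13). *nf-yb*, a subunit of the transcription factor NF-Y, had 28.4, 23.8 and 25.3 in the ovary libraries, against 351, 409 and 337 in the testis libraries, or -3.82 (SE 0.14). Every ovary value of both lay above those of non-gonadal tissue, in which eIF3c had 2.14, 2.77 and 2.11 normalized CPM and *nf-yb* had 5.74, 4.51 and 4.81.

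*nanos*, which encodes an RNA-binding regulator of early germ cells, did not differ detectably. It had 35.8, 33.7 and 40.7 normalized CPM in the ovary libraries, against 36.2, 29.8 and 38.3 in the testis libraries, while non-gonadal tissue had 9.29, 10.7 and 9.27. The gonads overlapped, and its log2 fold change of 0.08 (SE 0.12, edgeR adjusted p = 0.55) was 1.04 and called with library size alone, so whether it was called depended on the scaling.

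The other 5 genes of the first list were higher in ovary. *zfs1* had 49.6, 35.2 and 43.0 normalized CPM in the ovary libraries, against 0, 0.0585 and 0 in the testis libraries, while non-gonadal tissue had 0.887, 2.5 and 1.13. A single testis read stood against 3869 ovary reads, a ratio of 2123 (95% counting interval 381 to 83865), so the size of the difference is known only within that range. Among the known gonadal genes it was the one least read in testis. *lecg* differed by 3.82 (SE 0.41) on the log2 scale, and its testis level was 98.8 ± 7.37 TPM (SD, n = 3), above that of most testis transcripts. KLF4_HUMAN, which stands for the match of a Krüppel-like transcription factor, had 73.9, 91.4 and 90.9 normalized CPM in the ovary libraries, against 3.86, 3.28 and 4.88 in the testis libraries (4.41, SE 0.24). The 2 transcripts of *tgs-1*, a marker of a neoblast subset and of female germ cell progenitors, differed by 4.28 (SE 0.30) and 4.15 (SE 0.32) on the log2 scale. The first had 10.7, 17.9 and 16.5 normalized CPM in the ovary libraries, against 1.12, 0.468 and 0.746 in the testis libraries. The files do not show whether reads were split between these 2 transcripts.

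**Figure D4:**
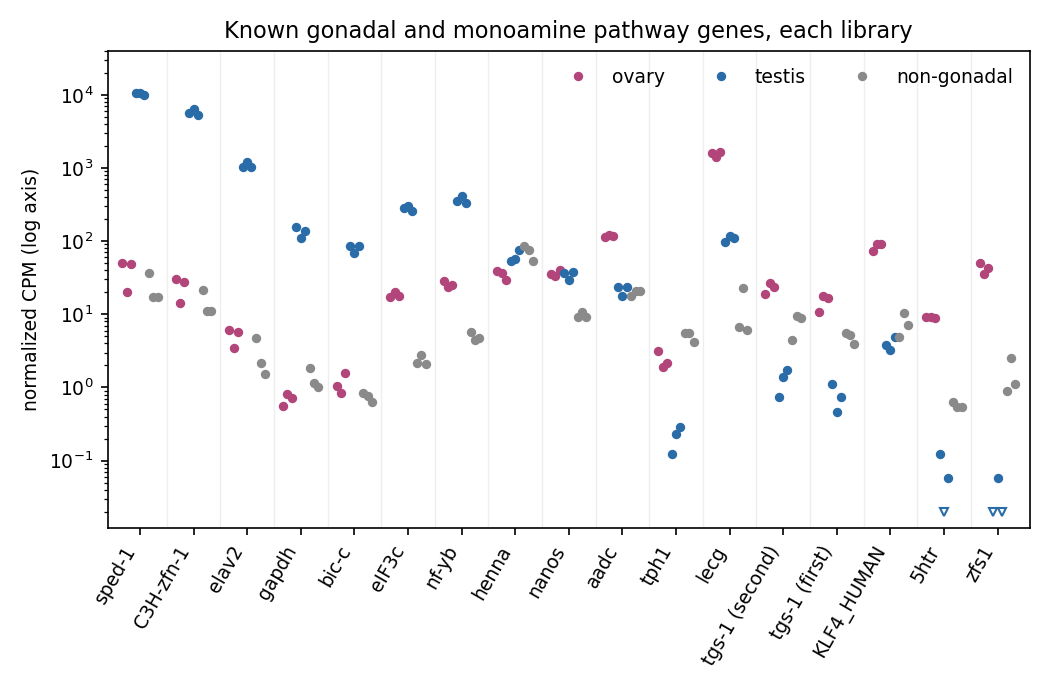
Normalized CPM (log axis) of the 17 known gonadal and monoamine pathway transcripts in each library of ovary, testis and non-gonadal tissue, 1 point per library, ordered by log2 fold change. Open triangles at the lower edge mark testis libraries with 0 counts, which a log axis cannot show. From *sped-1* to *nf-yb* all testis points lie above the ovary points, at *henna* they lie close, at *nanos* they overlap, and from *aadc* to *zfs1* all ovary points lie above.

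The monoamine pathway list held 4 transcripts, of which 3 were higher in ovary and none in testis, where 31.6% and 30.4% of all kept transcripts were called in those directions. It holds only the synthesis enzymes and 1 receptor, with no transporter, so the count depends on that choice. The study reports that different transporters and serotonin receptors appear to be expressed in ovary and in testis. It took up *aadc* because of its enrichment in these ovary libraries, so the direction of *aadc* is no independent evidence. Monoamines such as serotonin and dopamine are made from aromatic amino acids, which are first hydroxylated and then decarboxylated by AADC. *aadc* had 114, 119.8 and 116 normalized CPM in the ovary libraries, against 24.0, 18.0 and 23.4 in the testis libraries (2.42, SE 0.12, edgeR adjusted p = 7.5e-10). Non-gonadal tissue had 17.9, 20.5 and 20.6. The testis libraries lay at the non-gonadal level and the ovary libraries well above both. *5htr*, a serotonin receptor, had 9.24, 9.07 and 9.0 normalized CPM in the ovary libraries, against 0.124, 0 and 0.0574 in the testis libraries. With 3 testis counts its ratio was 153 (95% counting interval 52.3 to 746). *tph1* encodes a tryptophan hydroxylase of serotonin synthesis, which the study describes as expressed in neurons. It had 3.15, 1.88 and 2.16 in the ovary libraries, against 0.124, 0.234 and 0.287 in the testis libraries (3.42, SE 0.37). It was highest in non-gonadal tissue, at 5.48, 5.63 and 4.17 normalized CPM. *henna* is the study's counterpart of the peripheral tryptophan hydroxylase of *Drosophila*. It had 38.9, 36.9 and 29.7 in the ovary libraries, against 52.8, 57.7 and 76.1 in the testis libraries. These did not overlap, but the log2 fold change of -0.82 (SE 0.18, edgeR adjusted p = 0.0011) did not reach 2-fold, and it was 0.14 with library size alone. The order of the 4 by ovary level was *aadc* (92.8 ± 9.35 TPM), *henna* (23.4 ± 3.68 TPM), *5htr* (7.27 ± 0.490 TPM) and *tph1* (1.91 ± 0.413 TPM), with no overlap of mean ± SD between neighbors. In testis, *henna* stood first with 19.8 ± 3.89 TPM and *aadc* second with 8.29 ± 1.39 TPM, and the other 2 were under 0.1 TPM.

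Neuronal transcripts were looked at because the ovaries lie next to the brain. The 4 markers, *tph1* and 3 matches of the vesicular acetylcholine transporter family, summed to 50.8 to 55.6 normalized CPM in the ovary libraries, 8.78 to 9.93 in testis and 13.4 to 14.5 in non-gonadal tissue. Of these, 3 of 4 were higher in ovary and none in testis, where 31.6% and 30.4% of all kept transcripts were so called. None was at 0 in a gonad. VACHT_MOUSE made up most of the sum, with 43.5, 38.1 and 38.8 normalized CPM in the ovary libraries, against 7.84, 7.26 and 8.09 in the testis libraries, while non-gonadal tissue had 3.44, 3.84 and 5.05. The 3 transporter matches come from the study's ovary-enriched table, so their excess in ovary over non-gonadal tissue was fixed by that choice. *tph1*, which does not, stood in ovary at -1.09 (SE 0.23) relative to non-gonadal tissue on the log2 scale. The part of neuronal RNA in the ovary results, those on transmitter receptors included, was not tested.

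The lists that follow hold entries from the part of the study's ovary-enriched table that was at hand, so they are not complete. Entries were grouped here by the function of the SwissProt protein each was matched to. That table was drawn from these ovary libraries, and required a higher level in ovary than in non-gonadal tissue, so it is not independent evidence that the members were higher in ovary. What is described below is how far each group differed from testis. The same ovary levels enter that difference, so the choice raises it too. Values over all kept transcripts, which were not so chosen, are therefore no like reference. Names such as CGH1_CAEEL give the best protein match and the species of that protein, and the roles are those known in that species.

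In the list of RNA regulators, 18 of 19 transcripts were higher in ovary, 12 of them at least 4-fold, and none was higher in testis (median log2 fold change 2.75, against 0.22 over all kept transcripts, of which 31.6% were called higher in ovary). The list included Tudor proteins of the piRNA pathway, Dicer, LIN28 and deadenylase subunits. CGH1_CAEEL, a germline RNA helicase in *C. elegans*, was the most abundant, at 1753 ± 284 TPM in ovary and 34.7 ± 0.987 TPM in testis. Its normalized CPM was 1902, 2287 and 2155 in the ovary libraries, against 89.0, 89.6 and 85.7 in the testis libraries, a log2 fold change of 4.58 (SE 0.72). The SE comes from the fit over all 9 libraries and so takes in the non-gonadal values, which were 2.19, 26.8 and 2.45. RBMS1_HUMAN, an RNA-binding protein, had 71.5, 78.3 and 77.5 in the ovary libraries, against 1.49, 1.52 and 1.03 in the testis libraries (5.81, SE 0.17). TUT7_HUMAN, a terminal uridylyltransferase that adds uridines to RNA ends, was hardly read in testis, with 26.7, 23.0 and 21.2 in the ovary libraries, against 0.0622, 0.0585 and 0. Its ratio was 596 (95% counting interval 165 to 4928), from 2 testis counts. CNO11_RAT, a subunit of the CCR4-NOT deadenylase, stood at the low end and was not called, at 38.5, 43.1 and 43.9 normalized CPM in the ovary libraries, against 26, 23.4 and 28.0 in the testis libraries (0.70, SE 0.11), or 1.66 and called with library size alone.

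All 24 transcripts of the DNA replication and cell cycle list were higher in ovary, against 31.6% of all kept transcripts. Most differed by small amounts, with a median log2 fold change of 1.54 and 7 of 24 at least 4-fold. The list covers origin licensing, DNA polymerases, checkpoint kinases, cohesin, condensin and histone chaperones. ASF1B_HUMAN, a histone chaperone of replicating cells, had 96.5, 101 and 102 normalized CPM in the ovary libraries, against 11.7, 12.6 and 11.8 in the testis libraries (3.05, SE 0.10). APC11_ARATH, a subunit of the anaphase-promoting complex, had 54.6, 32.3 and 39.0, against 17.1, 13.7 and 16.1 (1.42, SE 0.17). MEK1_SCHPO, matched to a meiotic kinase of fission yeast, had the largest difference, at 3.86, 4.26 and 5.21 normalized CPM in the ovary libraries, against 0.0622, 0.0585 and 0.172 in the testis libraries (5.41, SE 0.39). SSRP1_HUMAN, a histone chaperone subunit, was the lowest member, at 56.0, 71.8 and 57.8 normalized CPM in the ovary libraries, against 33.2, 28.2 and 30.3 in the testis libraries (1.02, SE 0.12), and its call was lost without ovary replicate 2 (0.83), without testis replicate 2 (0.96) and with DESeq2 size factors (0.90). The count of members higher in ovary ran from 21 to 24 when a library was left out. Relative to non-gonadal tissue, the median member stood at 0.60 in testis on the log2 scale.

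Transcription factors were also all higher in ovary, 15 of 15, against 31.6% of all kept transcripts. Of the 15, 13 were at least 4-fold higher, and the list's median log2 fold change was 3.79. The list spans forkhead, Pax, T-box, E2F and zinc finger families. ZFP26_MOUSE, a zinc finger protein, was the most abundant at 368 ± 52.8 TPM in ovary and 35.7 ± 2.45 TPM in testis, and had 483, 552 and 506 normalized CPM in the ovary libraries, against 107, 111 and 96.2 in the testis libraries (2.30, SE 0.12). KLF4_HUMAN came next, at 98.6 ± 17.3 TPM in ovary. MECOM_HUMAN was the lowest, at 22.8, 27.7 and 23.4 normalized CPM in the ovary libraries, against 11.2, 12.1 and 12.4 in the testis libraries (1.05, SE 0.11), and it fell under 2-fold without ovary replicate 2 (0.89) and with DESeq2 size factors (0.93). In testis, the median member stood at -0.91 relative to non-gonadal tissue on the log2 scale.

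Signalling genes of the Notch, Wnt and related pathways were higher in ovary in 9 of 11 cases, against 31.6% of all kept transcripts. Of the 9, 6 were at least 4-fold higher, and the list's median log2 fold change was 2.03. CDON_XENLA, a Hedgehog co-receptor in vertebrates, had the largest difference, at 12.3, 15.6 and 14.4 normalized CPM in the ovary libraries, against 0.124, 0.117 and 0.115 in the testis libraries (6.83, SE 0.26). SMAD4_BOVIN, the common mediator of TGF-beta signals and also counted among the transcription factors, had 75.0, 77.6 and 69.1, against 20.7, 19 and 20.9 (1.87, SE 0.10). MESD_DANRE, a chaperone of Wnt co-receptors, was not called, at 17.2, 13.3 and 16.6 in the ovary libraries, against 8.84, 10.3 and 9.01 in the testis libraries (0.74, SE 0.13), or 1.71 and called with library size alone. In this list it was the lowest member although its ovary and testis libraries did not overlap.

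The list with the largest median difference was that of neurotransmitter and peptide receptors and transporters. In it, 12 of 13 transcripts were higher in ovary, against 31.6% of all kept transcripts, and all 12 were at least 4-fold higher. The list's median log2 fold change was 6.05, or 4.95 with the member at 0 in testis set to its bound. ACM3_CHICK, a muscarinic acetylcholine receptor, had 28.0, 28.4 and 28.8 normalized CPM in the ovary libraries, against 0.0622, 0.0585 and 0 in the testis libraries, a ratio of 718 (95% counting interval 199 to 5931) from 2 testis counts. VACHB_DANRE had 7.44, 8.06 and 7.76 in the ovary libraries, against 0.124, 0.117 and 0.0574 in the testis libraries (6.22, SE 0.31), and VACHT_MOUSE differed by 2.38 (SE 0.13). VACHA_DANRE was not called, at 1.49, 2.74 and 2.55, against 1.43, 1.17 and 1.49, with a log2 fold change of 0.73 (SE 0.27), or 1.70 and called with library size alone. The members were low in level, from 0.99 to 34.1 TPM in ovary and from 0 to 3.15 TPM in testis. Relative to non-gonadal tissue, the median member stood at -3.32 in testis on the log2 scale, so this group was lower in testis than in the body.

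Junction and matrix genes were higher in ovary in 12 of 14 cases, against 31.6% of all kept transcripts. Of the 12, 11 were at least 4-fold higher, and the list's median log2 fold change was 3.08. Innexins, the gap junction proteins of invertebrates, gave the most extreme values. INX11_CAEEL had 17.0, 17.6 and 20.9 normalized CPM in the ovary libraries, against 0, 0 and 0 in the testis libraries, so that it was at least 310-fold higher in ovary, and only 3 counts were found in non-gonadal tissue. UNC9_CAEEL, another innexin and named because it too was at 0 in testis, was at least 92.5-fold higher. Matrix genes differed less. CO4A2_MOUSE, a type IV collagen chain of basement membranes, had 109, 133 and 115 normalized CPM in the ovary libraries, against 39.6, 43.4 and 39.0 in the testis libraries (1.55, SE 0.11). LAMB1_HUMAN, a laminin beta chain, had 151, 175 and 161, against 109, 80.0 and 104, and at 0.73 (SE 0.13) was not called, or 1.69 and called with library size alone.

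Of 12 nuclear pore and export genes, 10 were higher in ovary, against 31.6% of all kept transcripts. Of the 10, 3 were at least 4-fold higher, and the list's median log2 fold change was 1.5. XPO1_RAT, the main exporter of proteins, had 131, 152 and 124 normalized CPM in the ovary libraries, against 54.8, 53.0 and 46.6 in the testis libraries (1.40, SE 0.11). RAE1_CAEEL, an mRNA export factor, had 38.5, 36.2 and 31.9, against 5.48, 5.68 and 5.11 (2.71, SE 0.17). The largest difference was that of THO4B_XENLA, an mRNA export adaptor, with 20.6, 16.2 and 18.5 in the ovary libraries, against 0 in each testis library, which makes it at least 308-fold higher in ovary. The nucleoporin NUP58_RAT was the lowest, at 44.9, 54.8 and 47.8 normalized CPM in the ovary libraries, against 28.5, 27.5 and 27.7 in the testis libraries (0.82, SE 0.10), which was not called, or 1.79 and called with library size alone.

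The list of ribosome assembly and translation held 21 transcripts, of which 20 were higher in ovary, against 31.6% of all kept transcripts. Of the 20, 9 were at least 4-fold higher, and the list's median log2 fold change was 1.81. Most members are assembly factors of the nucleolus and differed modestly. UTP11_DROME, a factor of the small subunit, had 52.3, 48.8 and 55.9 normalized CPM in the ovary libraries, against 22.6, 24.9 and 24.8 in the testis libraries (1.12, SE 0.10). A few initiation and elongation factor transcripts differed far more, such as EIF3H_XENLA, matched to a subunit of initiation factor eIF3. It had 40.8, 38.9 and 39.7 normalized CPM in the ovary libraries, against 0, 0 and 0 in the testis libraries, and was at least 669.5-fold higher in ovary, with 1 count over the non-gonadal libraries. EI3GA_XENLA, another eIF3 subunit, was not called, at 79.7, 80.1 and 83.3 in the ovary libraries, against 49.8, 49.2 and 50.9 in the testis libraries (0.70, SE 0.09), or 1.67 and called with library size alone. The 3 eIF3 subunit transcripts described here thus went in different ways, eIF3c higher in testis, EIF3H_XENLA read in ovary and not in testis, and EI3GA_XENLA not called. EF1A1_RAT (first), an elongation factor match named because it was at 0 in testis, was at least 74.4-fold higher in ovary. EF1A1_RAT (second), with the same best match, had a log2 fold change of 5.28 (SE 0.30). Outside the gonads the former averaged only 0.176 TPM and the latter 0.207 TPM. Whether other transcripts encode these factors or eIF3h was not tested, so the values do not show that testis lacks them.

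Chromatin genes gave the smallest median difference of these lists, 1.31 on the log2 scale. Of the 12, 10 were higher in ovary, against 31.6% of all kept transcripts, and 3 of the 10 were at least 4-fold higher. BET1_CAEEL, a bromodomain protein, had 80.4, 87.9 and 75.1 normalized CPM in the ovary libraries, against 30.2, 28.5 and 30.3 in the testis libraries (1.45, SE 0.10). BRD7_CHICK, of the same domain class, had 50.3, 58.7 and 45.8, against 20.8, 18.6 and 16.6 (1.47, SE 0.13). ISWI_DROME, matched to a nucleosome remodeler, had 3.72, 3.39 and 2.94 in the ovary libraries, against 0.124, 0.117 and 0 in the testis libraries (5.31, SE 0.53), from a transcript of 326 bases. KAT2B_MOUSE, a histone acetyltransferase, was not called, at 12.6, 13.9 and 12.8, against 7.53, 7.08 and 6.26 (0.91, SE 0.13), or 1.88 and called with library size alone. The count of members higher in ovary ran from 8 to 11 when a library was left out.

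The last list, transposon-derived transcripts, had 5 of 7 higher in ovary, against 31.6% of all kept transcripts. Of the 5, 2 were at least 4-fold higher, and the list's median log2 fold change was 1.84. YI31B_YEAST (first), matched to a retrotransposon polyprotein, had 124, 65.7 and 112 normalized CPM in the ovary libraries, against 22.0, 13.9 and 12.5 in the testis libraries (2.64, SE 0.32). The transcript matched as ORF2, partial, had 4.43, 4.37 and 4.82, against 1.49, 0.937 and 1.38 (1.84, SE 0.21). PO22_POPJA was low and not called, at 1.59, 1.68 and 1.21, against 1.24, 0.410 and 0.861 (0.84, SE 0.37), or 1.80 and called with library size alone. Repeat copies share sequence, so counts of these transcripts are uncertain.

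**Figure D5:**
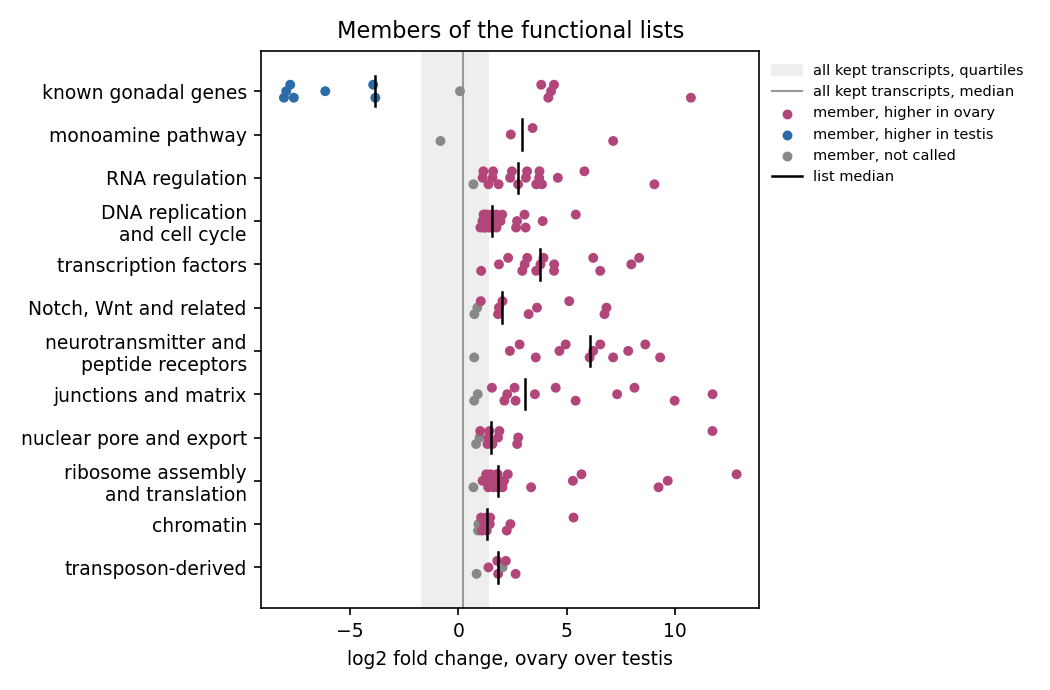
Log2 fold change, ovary over testis, of each member of 12 functional lists (1 point per transcript, colored by call), with the list median as a black bar and the median and quartiles of all kept transcripts in gray. Members with 0 testis counts are drawn at their fitted value, which is no bound. Apart from the known gonadal genes and *henna*, all members lie to the right of the median of all kept transcripts, and apart from the known gonadal genes (-3.82) the list medians run from 1.31 (chromatin) to 6.05 (neurotransmitter and peptide receptors and transporters).

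The lists differed in their medians. Chromatin, nuclear pore and export, DNA replication and cell cycle, ribosome assembly and translation, and transposon-derived transcripts had the 5 lowest medians, 1.31 to 1.84. Notch and Wnt signalling, RNA regulation, monoamine pathway, junctions and matrix, transcription factors and receptors had the other 6, 2.03 to 6.05. In the 5 lowest lists testis stood at or above non-gonadal tissue, with median log2 fold changes of 0.12 to 0.71, and in the other 6 it stood below, with medians of -3.32 to -0.44. These medians are tied to those of ovary over testis, because members of most lists were chosen with ovary above non-gonadal tissue. A smaller difference between the gonads then goes with a higher testis level. The medians also depend on the scaling, as TMM factors were 0.670 to 0.727 in testis and 1.02 to 1.04 in non-gonadal tissue. No test of the difference between lists was made.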

How the data were processed

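Stranded, single-end RNA-seq libraries of laser-captured tissue (ovary, testis and non-gonadal, 3 each) were grouped as their labels give tissue and replicate. After trimming, the authors used CLC Genomics Workbench for mapping, against a de novo transcriptome that also held *zfs1*. How reads with several matches were counted is not stated in the labels or methods, and reads carry no molecular identifiers.

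The authors deposited read counts per transcript without normalization, which were the input of every test. The TPM values the authors deposited were used for levels between genes, and the deposited RPKM values only to recover transcript lengths. The deposited CPM columns are a signal with a composition factor in it, as their sums differ between libraries, and served for the filter only. The 12 columns of fold changes and p-values from the authors' own comparisons were not used.

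Under R 4.3.3, edgeR 4.0.16 with limma 3.58.1 was run with TMM scaling and a quasi-likelihood fit over all 9 libraries, with ovary minus testis as the contrast and Benjamini-Hochberg adjustment over 18416 transcripts. SE is the size of the log2 fold change over the square root of F, and takes in the spread of all 9 libraries. In data simulated from the mean profile of all libraries, 100 transcripts were changed 2.5-fold and 100 were changed 4-fold. This fit recovered 69% and 99% of them. The simulation used a fixed spread, changed only well-read transcripts and held no composition shift, so it does not cover the effect of scaling. Named transcripts are all members of the first 2 lists, in each other list the 2 of highest ovary TPM and those of largest and lowest log2 fold change, and, over all kept transcripts, the 5 most abundant of each call (for those not called, within 0.5 of 0 on the log2 scale) and the 5 of largest change in each direction among those of at least 10 TPM. Of the transcripts this rule names, 1 is not reported here. The members and lists were chosen with earlier results of these data known. Alternatives were DESeq2 1.42.0 and its size factors, library size alone, other filters and thresholds, a fit on the 6 gonad libraries, a replicate block and leaving out each library.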

Additional observations from a re-analysis of the deposited data

How the results depend on the processing

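No transcript called in the comparison was called in the opposite direction under any alternative. Only 1 setting moved a count of calls by over 1.5 times, library size alone, with 9738 transcripts higher in ovary and 4202 higher in testis. The other settings gave 5380 and 5846 calls (DESeq2 size factors), 5396 and 5852 (DESeq2 Wald test), 6735 and 6520 (no filter), 6221 and 5987 (filterByExpr) and 5857 and 5562 (the 6 gonad libraries). Leaving out each library gave 5376 to 5903 transcripts higher in ovary and 5563 to 5740 higher in testis. The replicate block gave 5799 and 5594 calls. The labels do not say whether same-numbered libraries share worms. Deviations of same-numbered ovary and testis libraries correlated at 0.074, 0.021 and -0.002, and those of other pairs at -0.050 to 0.028. Whether the libraries are paired cannot be told from these values. Removing the 10 most abundant transcripts of each library, chosen after seeing the data, gave 5887 and 5570. Taken on its own, ovary replicate 2 held 36.9% of its counts in transcripts higher in ovary, at a median of 14.3 TPM, and testis replicate 2 held 71.5% in transcripts higher in testis, at 30.6 TPM. Among named transcripts, the log2 fold change of *nanos* turned to -0.0321 with DESeq2 size factors and -0.0321 with the DESeq2 Wald test. With library size alone *henna* turned to 0.14, SMED30002956 to 0.66, SMED30030028 to 0.82, SMED30014063 to 0.68, SMED30022321 to 0.72 and SMED30000628 to 0.95. Leaving out each library gave -0.0212 to 0.17 for *nanos* (negative without ovary replicate 3 or testis replicate 2), -0.34 to 0.0271 for SMED30030028, -0.57 to 0.0532 for SMED30014063 and -0.21 to 0.16 for SMED30000628 (the last 3 positive without testis replicate 3, and SMED30000628 also without testis replicate 2). None of these 7 was called in the comparison. The cause was not tested. Depth limits the differences of transcripts with at most 3 counts in a gonad, 185 in ovary and 453 in testis.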

Other observations

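The transcripts in this paragraph were chosen after their values were seen. SMED30029752 had 11757 counts over the ovary libraries, 1 over the testis libraries and 10 over the non-gonadal libraries, and its mean of 601 TPM was the highest in ovary among transcripts with at most 3 testis counts. SMED30032012 had 14735 counts over the ovary libraries, 3 over the testis libraries and 33 over the non-gonadal libraries. Of the 93 such transcripts, 15 had 0 counts in non-gonadal tissue. The files give both by identifier only.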
